A study of Mus musculus with 35 samples.

Results

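The genes described here are 31 mouse genes of heme synthesis, iron import, the red-cell membrane and the red-cell cytosol, taken from a list of names that leaves the globins out. Of these, 30 were found by Entrez number among the 19138 genes counted, and Ahsp, which encodes the alpha-globin chaperone, was not analysed here. The 30 comprise 8 genes of heme synthesis, 3 of iron and glycine import, 13 of the membrane and its skeleton, and 6 that encode other proteins of erythroid cells. All 30 passed the low-count filter of edgeR, which left 14945 genes.

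RNA was sequenced from 35 libraries of 1000 sorted long-term haematopoietic stem cells (LT-HSCs) each. All mice carried SclCre, a Cre recombinase under control of Scl, a gene active in blood stem and progenitor cells. Controls carried SclCre alone (n = 4), Ezh2-heterozygous mice were Ezh2 +/- (n = 7) and Ezh2-null mice Ezh2 -/- (n = 4). The other groups also carried JAK2V617F, the activating kinase mutation of polycythaemia vera and related disorders, here called JAK2-VF, with Ezh2 +/+ (n = 6), Ezh2 +/- (n = 8) or Ezh2 -/- (n = 6). The sources used here give neither ages, nor the form of the Cre or of the JAK2V617F allele, nor the animal behind each library. The spread that the p-values measure is therefore that between libraries, and some of it may be technical. The labels give 14 libraries of an experimental batch 1 and 21 of a batch 2. All 4 control libraries were from females, and the 6 JAK2-VF libraries were from 2 females and 4 males. The Ezh2-null libraries were from 1 female and 3 males, against 5 females and 1 male with JAK2-VF. Total counts per library were 13.6 to 48.6 M (units of 1000000, median 24.9 M), and the members held 0.455 to 0.759% of them.

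The stem-cell markers Procr, Slamf1 and Kit had counts in every library, at 61.8 to 274, 39.8 to 121 and 543 to 1883 counts per 1000000 (CPM, on library sizes normalised by the TMM method). Whole-gene Ezh2 fell in JAK2-VF Ezh2-null against JAK2-VF libraries (log2 change -1.50 ± 0.21 SE, edgeR quasi-likelihood test, Benjamini-Hochberg adjusted p = 8.22e-05). In Ezh2-null against control libraries it did not pass (-0.945 ± 0.261, edgeR adjusted p = 0.453). Nor did it with Ezh2 heterozygous, against control (-0.321 ± 0.225) or against JAK2-VF with JAK2-VF present (-0.647 ± 0.186). In 2 libraries a value went against the label, both Ezh2-heterozygous and of batch 1. In replicate 3, a part of the Ezh2 gene that the files count separately took 0 of 831 counts, which allows a share of up to 0.361%. Replicate 1, labelled male, had Xist at 390.9 CPM, against 0.4 to 14.4 CPM in the other 14 males. Calls of members and of the other named genes in the Ezh2-heterozygous comparison, and the levels of that group where these libraries set a limit, are given with and without these 2 doubted libraries. Ranges over all 35 libraries and means within a batch include both. In Ezh2-null batch 2 replicate 2 the same part of Ezh2 took 3 of 627 counts (0.478%, exact 95% interval 0.0988 to 1.39%). It took 0 in the other Ezh2-null libraries, with or without JAK2-VF, and 1.74 to 9.50% of the Ezh2 counts in the 24 libraries that remain apart from the doubted replicate 3.

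Heme is built from glycine and succinyl-CoA by a chain of enzymes that begins and ends in the mitochondrion, and red-cell precursors run this chain at a high rate with an erythroid version of its opening enzyme. The same precursors build a membrane in which the anion exchanger band 3 and the Rh complex are tied by ankyrin and protein 4.2 to a skeleton of spectrin. Stem cells make little of these proteins, and the genes are switched on along the erythroid path under GATA1, KLF1 and the TAL1-LMO2-LDB1 complex. JAK2 carries the signal of the erythropoietin receptor, and Ezh2 is the catalytic subunit of the histone methyltransferase complex PRC2.

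The DNA before the start of 4 members is shown because 3 of them were high in the same few libraries and Rhag was high in all libraries of JAK2-VF Ezh2-null cells. Each stretch is the 250 bases before the RefSeq start in mouse build GRCm38.p6, 5′ to 3′ on the strand of the gene, and capitals mark a match, on either strand, to a 6-letter word that GATA factors can bind. The words searched were AGATAA, the form ending in G, which is AGATAG, the form beginning with T, which is TGATAA, and the form with both changes, which is TGATAG; no 2 matches overlapped in these 4 stretches. The Alas2 stretch is chrX:150547167-150547416 on the plus strand, that of Ermap chr4:119189996-119190245 on the minus strand, that of Rhd chr4:134864286-134864535 on the plus strand and that of Rhag chr17:40810899-40811148 on the plus strand.
Alas2: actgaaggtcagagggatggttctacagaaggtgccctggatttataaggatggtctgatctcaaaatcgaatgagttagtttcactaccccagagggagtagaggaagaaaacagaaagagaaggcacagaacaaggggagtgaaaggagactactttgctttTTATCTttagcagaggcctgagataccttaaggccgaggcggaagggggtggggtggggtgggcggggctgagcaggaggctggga
Ermap: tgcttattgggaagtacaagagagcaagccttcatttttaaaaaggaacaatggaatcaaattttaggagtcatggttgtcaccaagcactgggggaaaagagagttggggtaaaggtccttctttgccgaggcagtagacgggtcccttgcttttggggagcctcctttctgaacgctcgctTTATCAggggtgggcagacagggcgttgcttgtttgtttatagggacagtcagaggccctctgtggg
Rhd: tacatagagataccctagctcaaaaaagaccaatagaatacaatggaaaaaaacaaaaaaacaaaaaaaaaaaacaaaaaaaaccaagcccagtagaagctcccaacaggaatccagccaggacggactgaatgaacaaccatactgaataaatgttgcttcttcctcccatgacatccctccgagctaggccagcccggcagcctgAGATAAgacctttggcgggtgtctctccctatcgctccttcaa
Rhag: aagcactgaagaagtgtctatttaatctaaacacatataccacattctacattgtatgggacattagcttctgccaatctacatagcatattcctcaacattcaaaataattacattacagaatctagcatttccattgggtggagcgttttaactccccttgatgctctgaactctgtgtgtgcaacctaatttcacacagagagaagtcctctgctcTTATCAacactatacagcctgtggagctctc
Each of the 4 holds 1 such word, which begins 86 bases before the start in Alas2, 67 in Ermap, 43 in Rhd and 31 in Rhag. Of the 23 members in the RefSeq promoter table, 10 held at least 1 (43.5%), as did 27.1% of 27018 promoters of the same length. Besides these 4, the words were found in Cpox, Epb42, Hemgn, Icam4, Kel and Trim10. They were absent from Alad, Alas1, Blvrb, Bpgm, Ppox, Slc25a38, Sptb, Tfrc, Tmod1, Tspo2, Urod, Uros and Xk. Tspo2, like Ermap, was highest in Ezh2-heterozygous batch 1 replicate 1, so the stretches shown do not stand for all members high there. A match is a string of letters and not a bound site. The counts were made on build mm9, so these coordinates belong to RefSeq and not to the count files.

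Levels per kilobase of gene length ordered the members by how much of their RNA was present. Car2, which encodes carbonic anhydrase 2, stood far above the rest with a median of 2787 CPM per kb over the 35 libraries and held 80.0 to 87.7% of all counts of the members in a library. Next came Urod (uroporphyrinogen decarboxylase) at 90.8 CPM per kb, Blvrb (biliverdin reductase B) at 67.1 and Ppox (protoporphyrinogen oxidase) at 51.6. Alas1, the version of the opening enzyme of heme synthesis that most cells use, had a median of 36.0 CPM per kb. Its erythroid counterpart Alas2 had 0.869 CPM per kb, with a range from 0.213 to 18.7. Spectrin and ankyrin genes were near the bottom, with 0.0162 CPM per kb for Sptb and 0.0915 for Ank1, and the medians of Slc4a1 (band 3), Ermap, Cldn13, Car1 and Trim10 were 0.

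**Figure D1:**
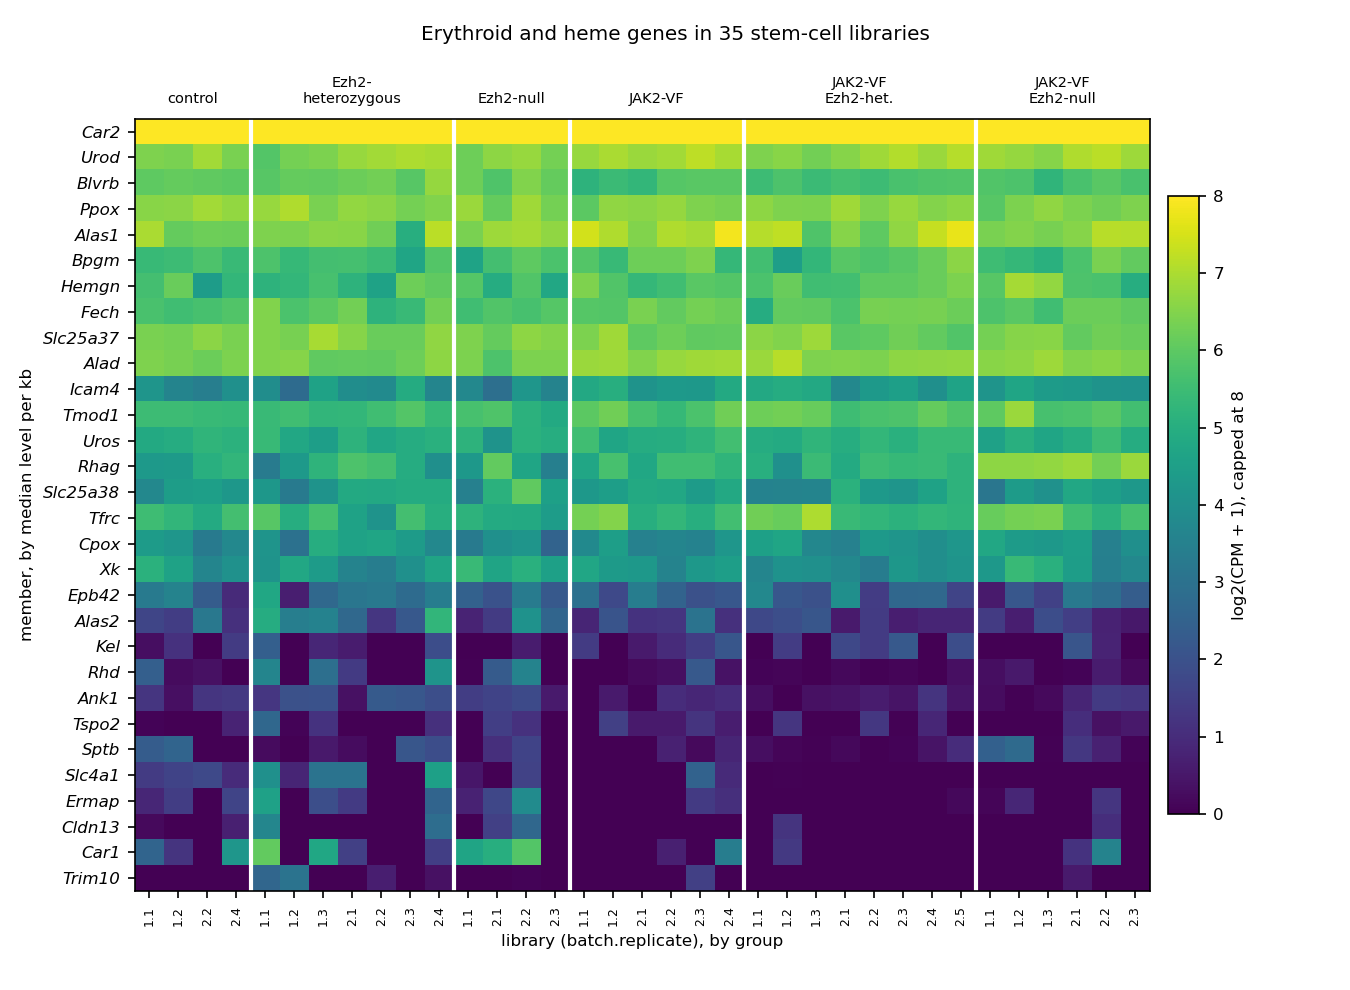
Level of each of the 30 members (rows, ordered by median level per kb) in each of the 35 libraries (columns, labelled batch.replicate and grouped by genotype), as log2(CPM + 1) with the colour capped at 8. The upper 20 rows have counts in every library, and in the lower rows bright cells are scattered over a few libraries. Rhag is bright across all 6 JAK2-VF Ezh2-null libraries.

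The map of levels shows that 20 members had counts in every library and 10 were at 0 in at least 1. The 10 were Slc4a1, Ermap, Rhd, Ank1, Sptb, Tspo2, Cldn13, Kel, Car1 and Trim10, so 8 of the 13 membrane genes but none of the 8 heme genes. For 9 of the 10, the library with the highest level was one without JAK2-VF, the exception being Sptb. Among all 30 members, these 10 included, the same held for 18. The peaks are not separate observations. Ermap, Cldn13, Car1, Tspo2 and Kel all peaked in the doubted Ezh2-heterozygous batch 1 replicate 1. Slc4a1 and Rhd both peaked in Ezh2-heterozygous batch 2 replicate 4. No direction with JAK2-VF is therefore read from where the 10 peaked.

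In JAK2-VF against control libraries, 2 of the 30 members changed, Blvrb and Cldn13, and both fell. Over all 14945 genes tested, 4.22% were called in this comparison at an edgeR adjusted p under 0.05, 2.4% higher and 1.83% lower. The share of members called was close to the background, and the median log2 change of the members, 0.003, was close to that of all genes, -0.027.

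Blvrb encodes a reductase that acts on biliverdin, a breakdown product of heme, and on flavins. Its level was 63.3, 67.9, 65.4 and 62.2 CPM in the 4 controls and 34.7 to 61.4 CPM (median 50.4) in the 6 JAK2-VF libraries. Every JAK2-VF library lay below every control. The log2 change was -0.63 ± 0.15 (edgeR adjusted p = 0.012), with group means of 65.6 and 38.8 CPM in batch 1 and of 63.8 and 54.6 CPM in batch 2. The call was lost without JAK2-VF batch 1 replicate 1 (edgeR adjusted p = 0.0544), without a term for sex (0.11), and in fits of the compared groups only (0.0973), females only (0.0527), batch 1 (0.277) or batch 2 (0.363).

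Cldn13, a claudin gene active in mouse erythroid cells, had 17 counts in 2 of the 4 control libraries, at 0.143 and 0.62 CPM, and 0 counts in all 6 JAK2-VF libraries. With a floor of 3 counts set for the JAK2-VF group as a whole, its pooled level was at least 11.3-fold lower (edgeR adjusted p = 0.0258). That bound covers counting error alone, and the remaining controls were also at 0. Cldn13 passed the low-count filter only through libraries of other groups, which reached 11.6 CPM. In a fit of the compared groups only it was not tested. The adjusted p was 0.151 when replicate 4 of batch 2 was left out of the controls and 0.0522 when that of JAK2-VF was. It was 0.253 in edgeR with no term for sex and 0.275 with limma-voom.

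Among members that did not pass, Alad and Fech lay above every control in 6 of 6 JAK2-VF libraries. With Blvrb, 3 of the 30 members did not overlap between these groups, beside 6.26% of all genes tested. Alad encodes the enzyme that follows ALAS and joins its products into porphobilinogen, and Fech encodes ferrochelatase, which inserts the iron. Alad had 86.2, 80.3, 73.2 and 84.4 CPM in controls and 88.6 to 119 CPM in JAK2-VF libraries (log2 0.28 ± 0.13, edgeR adjusted p = 0.243). Fech had 45.5 to 56.0 CPM and 56.6 to 82.3 CPM (log2 0.30 ± 0.22, edgeR adjusted p = 0.521). Icam4, the gene of the LW blood-group adhesion protein, lay above every control in 5 of 6 libraries (log2 0.99 ± 0.33, edgeR adjusted p = 0.0842). In all, 8 members had an unadjusted p under 0.05, among 2599 of the 14945 genes.

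In JAK2-VF Ezh2-heterozygous against Ezh2-heterozygous libraries 9 members changed, 2 higher and 7 lower. Of all genes 9.05% were called, 4.88% higher and 4.18% lower, and 4 of the 30 members were called with the 2 doubted libraries left out, beside 6.18% of all genes in that refit. The median log2 change was -0.197 over the members and -0.009 over all genes. Those that fell were Alas2, 5 membrane or cytosol genes with counts in only some libraries (Slc4a1, Ermap, Rhd, Ank1 and Car1) and Blvrb. Those that rose were Alad and Tmod1, which encodes a cap of the short actin filaments of the membrane skeleton.

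Alas2 ranged from 1.42 to 37.1 CPM (median 9.68, or 5.57 without the 2 doubted libraries) in the 7 Ezh2-heterozygous libraries and from 0.479 to 3.38 CPM (median 1.21) in the 8 with JAK2-VF. All 8 lay below the median of the 7, and 4 lay below every one of them. The log2 change was -2.87 ± 0.72 (edgeR adjusted p = 0.00807). The group means were 16.7 and 2.83 CPM in batch 1 and 11.9 and 0.85 CPM in batch 2. Without the 2 doubted libraries the change was -2.70 (edgeR adjusted p = 0.042), and in batch 1 alone, females alone and batch 2 alone the adjusted p was 0.32, 0.266 and 0.0411.

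Slc4a1, the gene of band 3, had 1463 counts over 5 of the 7 Ezh2-heterozygous libraries, with levels from 0 to 22.2 CPM (median 7.32), and 1 count over the 8 libraries with JAK2-VF. The ratio of the levels was 0.000428, with an exact 95% interval from 1.08e-05 to 0.00239 that covers counting error alone, and the edgeR adjusted p was 0.000586. Without the 2 doubted libraries the adjusted p was 0.00528, and within batch 1 and batch 2 alone it was 0.0889 and 0.0777.

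Ermap, a membrane protein gene of the Scianna blood group, ranged from 0 to 22.9 CPM (median 1.55), or to 4.95 CPM without the 2 doubted libraries. With JAK2-VF it was at 0 in 7 of 8 libraries and at 0.123 CPM in the other (log2 -7.40 ± 1.82, edgeR adjusted p = 0.00714). Rhd, an Rh blood-group gene, ranged from 0 to 16.8 CPM and from 0 to 0.246 CPM (log2 -5.61 ± 1.60, edgeR adjusted p = 0.0212). Ank1 ranged from 0.279 to 3.79 CPM and from 0 to 1.29 CPM (log2 -2.82 ± 0.87, edgeR adjusted p = 0.0342). Car1, which encodes carbonic anhydrase 1, ranged from 0 to 66.5 CPM and from 0 to 1.53 CPM (log2 -6.93 ± 2.09, edgeR adjusted p = 0.0343). Without the 2 doubted libraries Car1 reached only 1.83 CPM in the Ezh2-heterozygous group. These 4 groups of values overlap, since some Ezh2-heterozygous libraries were also at or near 0. Their calls were lost without the 2 doubted libraries, with adjusted p of 0.055 for Ermap, 0.126 for Rhd, 0.102 for Ank1 and 0.664 for Car1, whose log2 change was then -2.08.

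Leaving out 1 library at a time, Alas2, Alad, Slc4a1, Ermap and Blvrb stayed past the threshold in all 15 refits. Rhd lost its call without Ezh2-heterozygous batch 1 replicate 3 (edgeR adjusted p = 0.0634) or batch 2 replicate 4 (0.056). Ank1 lost it without Ezh2-heterozygous batch 1 replicate 3 or batch 2 replicate 3, or JAK2-VF Ezh2-heterozygous batch 1 replicates 1 and 2 or batch 2 replicates 3 and 5 (at most 0.0901). Car1 kept its call only without Ezh2-heterozygous batch 1 replicate 2, any library of Ezh2-heterozygous batch 2, or JAK2-VF Ezh2-heterozygous batch 1 replicate 2, and reached an adjusted p of 0.0984 in the other 9 refits. Tmod1 kept it only without Ezh2-heterozygous batch 2 replicate 2 or 3, or JAK2-VF Ezh2-heterozygous batch 2 replicate 1 or 2, and reached 0.125 in the other 11. The number of members called was 5 without Ezh2-heterozygous batch 1 replicate 3.

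Blvrb again lay lower in every library with JAK2-VF, at 42.8 to 55.5 CPM (median 49.6, n = 8) against 59.9 to 104 CPM (median 68.5, n = 7). This was a log2 change of -0.51 ± 0.11, with an edgeR adjusted p of 0.00274 that became 0.00505 without the 2 doubted libraries. Group means were 64.9 and 46.6 CPM in batch 1 (edgeR adjusted p = 0.485 in that batch alone) and 78.7 and 50.7 CPM in batch 2 (0.024). How many of all genes did not overlap between these groups, as Blvrb did not, was not counted. Alad rose, from a range of 64.6 to 99.2 CPM (median 73.7) to one of 84.5 to 139 CPM (median 100.5), with 8 of 8 libraries above the Ezh2-heterozygous median and 4 above every library of that group (log2 0.43 ± 0.10, edgeR adjusted p = 0.0036). Without the 2 doubted libraries its adjusted p was 0.0321, and within batch 1 and batch 2 alone 0.113 and 0.152. Tmod1 ranged from 37.1 to 56.5 CPM (median 41.5) without and from 44.3 to 76.8 CPM (median 61.1) with JAK2-VF, which overlap. Without the 2 doubted libraries its Ezh2-heterozygous range was 38.0 to 56.5 CPM. Its log2 change of 0.49 ± 0.16 had an edgeR adjusted p of 0.0481, or 0.226 without the 2 doubted libraries.

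**Figure D2:**
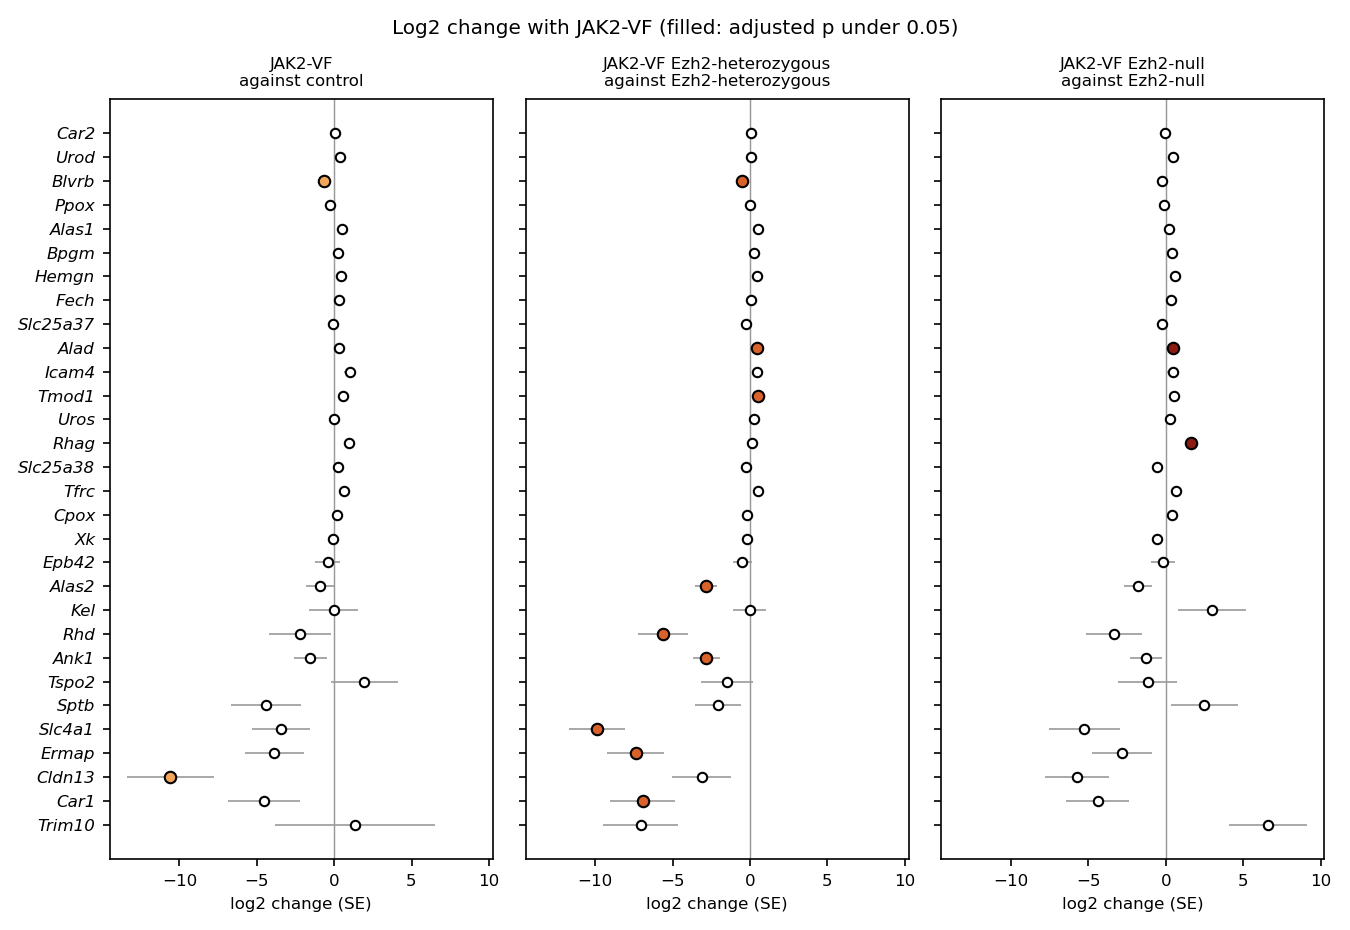
Log2 change (points, with bars of 1 SE) of each of the 30 members in the 3 comparisons with and without JAK2-VF, from the edgeR fit. Filled points passed an adjusted p under 0.05, and they number 2, 9 and 2 from left to right; the members in the lower rows, with counts in only some libraries, have the widest bars.

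In JAK2-VF Ezh2-null against Ezh2-null libraries 2 members rose, Rhag and Alad, and 0 fell. Over all genes 4.84% were called, 2.86% higher and 1.97% lower, and the median log2 change was 0.068 over the members and 0.008 over all genes. The Rhag result stood in every refit that left out 1 library, with adjusted p from 0.00149 to 0.0125.

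Rhag encodes the Rh-associated glycoprotein, the partner that carries Rh proteins to the membrane and conducts ammonia and carbon dioxide. It had 18.3, 66.2, 25.2 and 9.92 CPM in the 4 Ezh2-null libraries and 77.9 to 113 CPM (median 100.9) in the 6 with JAK2-VF. The groups did not overlap, and the log2 change was 1.64 ± 0.33 (edgeR adjusted p = 0.00213). In the other groups it was 19.2, 19.7, 31.98 and 37.1 CPM in controls, 8.99 to 53.2 CPM (median 29.7) in Ezh2-heterozygous, 25.4 to 50.5 CPM (median 41.2) in JAK2-VF and 15.1 to 43.7 CPM (median 37.7) in JAK2-VF Ezh2-heterozygous libraries. Without the 2 doubted libraries the Ezh2-heterozygous range was 14.7 to 53.2 CPM. Per kilobase the mean level was 11.7 CPM in controls, 12.9 CPM both with Ezh2 heterozygous and with Ezh2 lost, and with JAK2-VF 16.6, 15.1 and 43.2 CPM for Ezh2 intact, heterozygous and lost. The other 5 ranges overlap one another, and that of JAK2-VF Ezh2-null libraries overlaps none of them. How many of all genes separate JAK2-VF Ezh2-null from Ezh2-null, from JAK2-VF or from all other libraries was not counted.

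Rhag was higher in each batch. JAK2-VF Ezh2-null libraries averaged 100.1 CPM in batch 1 and 100.2 CPM in batch 2, against 18.3 CPM (1 library) and 33.8 CPM in Ezh2-null. Within batch 2 alone the adjusted p was 0.0619, within batch 1, which holds a lone Ezh2-null library, 0.662, and in females, again with a lone Ezh2-null library, 0.516 with a log2 change of 0.81. Against JAK2-VF libraries, JAK2-VF Ezh2-null libraries were also higher in 6 of 6, with a log2 change of 1.10 ± 0.29 that missed the threshold (edgeR adjusted p = 0.097). The same comparison passed with limma-voom (0.0263), with the DESeq2 Wald test (0.0157), without a term for sex (0.0248), in a fit of the compared groups only (0.0391) and without the 4 libraries with over 50 CPM of Hba-a1 (0.0478). The difference between the JAK2-VF effects without and with Ezh2 was 0.67 ± 0.48 (edgeR adjusted p = 1), so that the effect was not shown to depend on Ezh2.

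Alad had 85.3, 53.1, 85.6 and 84.9 CPM in Ezh2-null and 84.7 to 112 CPM (median 94.1) in JAK2-VF Ezh2-null libraries, of which 5 of 6 lay above every Ezh2-null library. The log2 change was 0.43 ± 0.13 (edgeR adjusted p = 0.0427), with group means of 85.3 (1 library) and 101.7 CPM in batch 1 and 74.6 and 89.1 CPM in batch 2. It stayed past the threshold only without Ezh2-null batch 2 replicate 2 or JAK2-VF Ezh2-null batch 2 replicate 2, and reached an adjusted p of 0.28 in the other 8 refits. It was also lost without a term for sex (0.301), with limma-voom (0.0559) and with DESeq2 size factors (0.0513). Blvrb, which fell in the other 2 comparisons, had a log2 change of -0.26 ± 0.15 here (edgeR adjusted p = 0.367), with 4 of 6 libraries below every Ezh2-null library. The 3 comparisons share no libraries, but they come from 1 fit with common batch and sex terms and a common estimate of the spread. They are therefore not fully independent.

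**Figure D3:**
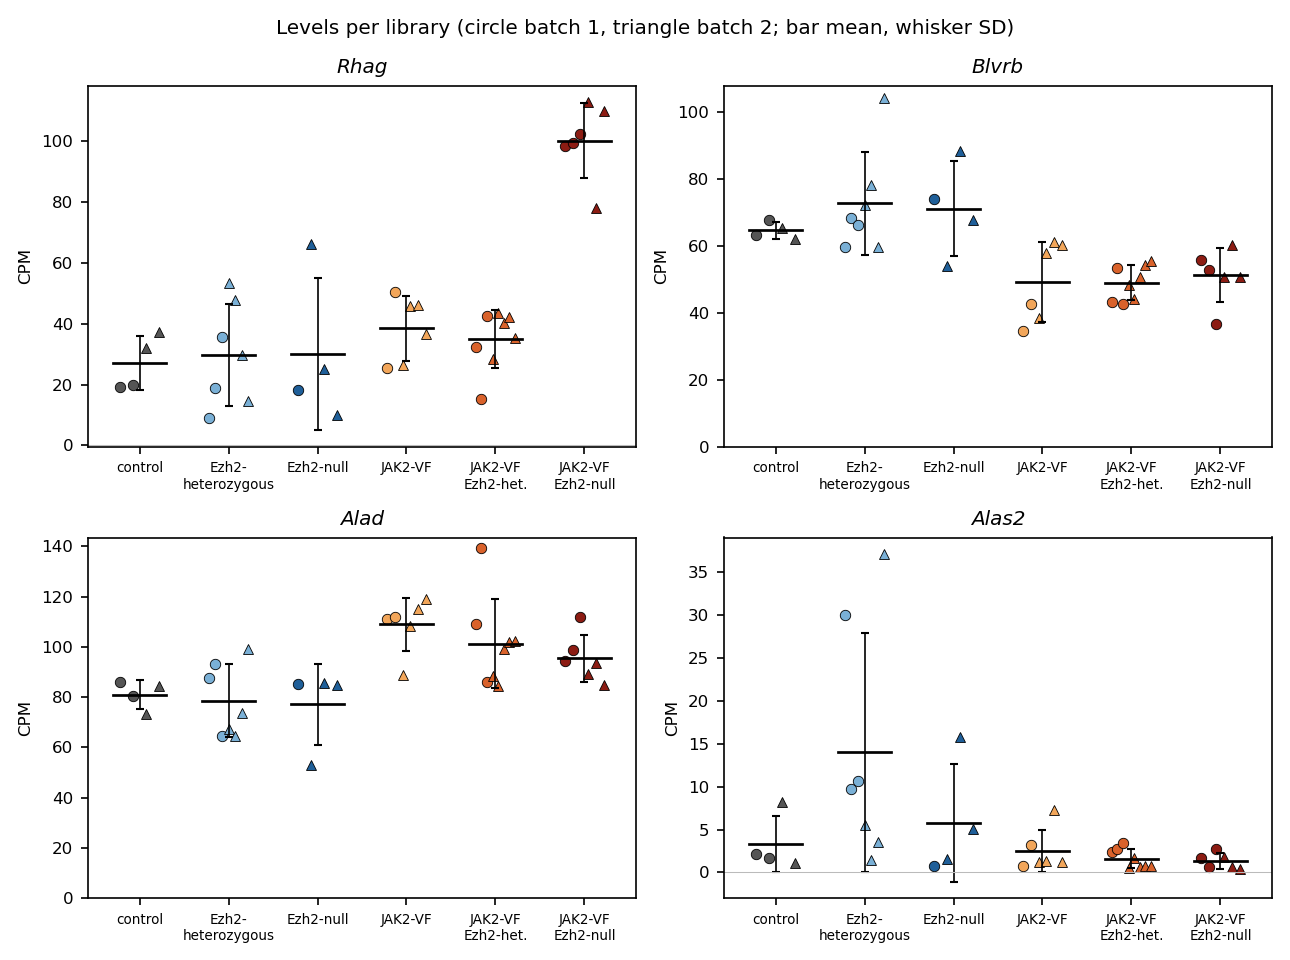
CPM of Rhag, Blvrb, Alad and Alas2 in each library (circles batch 1, triangles batch 2) by group, with the mean as a bar and the SD as a whisker. All 6 JAK2-VF Ezh2-null libraries lie between 77.9 and 113 CPM of Rhag, above all libraries of the other groups, while the highest Alas2 levels belong to 2 Ezh2-heterozygous libraries at 37.1 and 29.9 CPM.

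The members with counts in only some libraries were highest in libraries that were also high in Alas2 and alpha globin, but other libraries departed from this. The summed level of the 10 was highest in Ezh2-heterozygous batch 1 replicate 1 (144 CPM), Ezh2-null batch 2 replicate 2 (95.2 CPM) and Ezh2-heterozygous batch 2 replicate 4 (61.8 CPM), and only in these 3 did all 10 have counts. The same 3 held the highest Alas2, at 29.9, 15.7 and 37.1 CPM, and 3 of the 4 highest levels of the alpha-globin gene Hba-a1, at 134, 68.7 and 165 CPM. Hba-a1 has the same counts as its copy Hba-a2 in every library, so the copies cannot be told apart. The other library with over 50 CPM of Hba-a1, control batch 2 replicate 2 at 72.8 CPM, held 8.18 CPM of Alas2 but a sum of only 4.0 CPM. Ezh2-null batch 2 replicate 3, with 33.5 CPM of Hba-a1 and 5.06 CPM of Alas2, had a sum of 0.49 CPM. Conversely, Ezh2-null batch 2 replicate 1 had a sum of 44.2 CPM, most of it Car1 at 31.2 CPM, beside 0.36 CPM of Hba-a1. Car1 also made up 66.5 CPM of the highest sum and 57.1 CPM of the next.

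**Figure D4:**
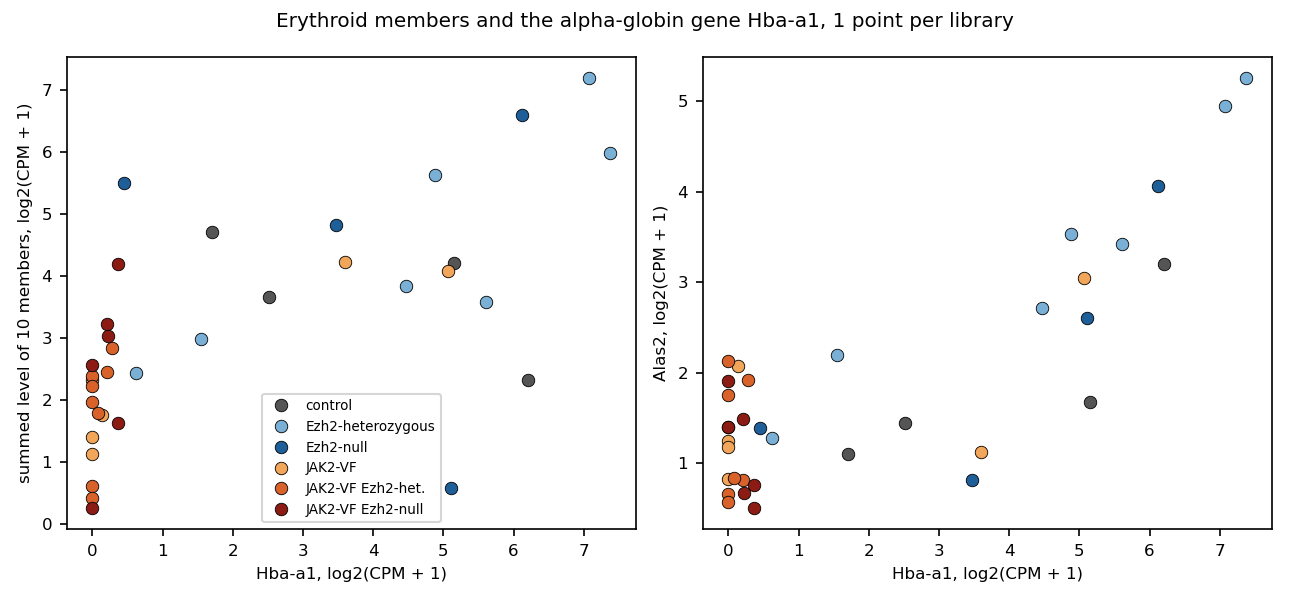
Summed level of the 10 members that were at 0 in at least 1 library (left) and level of Alas2 (right) against Hba-a1, all as log2(CPM + 1), with 1 point per library coloured by group. Libraries with JAK2-VF gather at the left edge, where Hba-a1 is near 0, apart from 2 JAK2-VF libraries at 11.2 and 32.4 CPM of Hba-a1.

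By group, the summed level of the 10 was 4.0 to 25.1 CPM (median 14.6) in controls, 4.4 to 144 (13.3) in Ezh2-heterozygous, 0.49 to 95.2 (35.8) in Ezh2-null, 1.19 to 17.7 (3.18) in JAK2-VF, 0.33 to 6.12 (3.29) in JAK2-VF Ezh2-heterozygous and 0.2 to 17.2 (6.03) in JAK2-VF Ezh2-null libraries. Without the 2 doubted libraries the Ezh2-heterozygous range was 4.40 to 61.8 CPM. Hba-a1 reached 72.8, 165 and 68.7 CPM in the 3 groups without JAK2-VF, 32.4 CPM in JAK2-VF libraries and at most 0.29 CPM in both groups that carried JAK2-VF with a changed Ezh2. The 8 globin genes together held 48.7 to 442 CPM in controls, 46.4 to 923 in Ezh2-heterozygous (the same range without the 2 doubted libraries), 48.2 to 402 in Ezh2-null, 26.8 to 215 in JAK2-VF, 35.7 to 114 in JAK2-VF Ezh2-heterozygous and 138 to 723 CPM in JAK2-VF Ezh2-null libraries. In that last group the beta-globin gene Hbb-bt, whose counts equal those of its copy Hbb-b2, rose (log2 3.24 ± 0.54, edgeR adjusted p = 0.000276), while Hba-a1 did not pass (-4.75 ± 1.89, 0.157). The sums over the 8 globin genes count such copies with equal counts as separate genes, and so overstate the globin level. They also hold both Hbb-bs and Hbb-b1, whose log2 change was -5.91 each in the Ezh2-heterozygous comparison. In bulk RNA, fewer cells of a type and less RNA per cell cannot be told apart, and the part of red-cell RNA from other cells in these levels was not tested. Without the 4 libraries with over 50 CPM of Hba-a1, which is an alternative chosen after seeing the data, the members called were 2, 8 and 3 in the 3 comparisons, the last with Urod added, beside 3.81, 9.72 and 4.22% of all genes. In the Ezh2-heterozygous comparison Slc4a1, Ermap, Ank1, Car1, Alas2, Blvrb and Alad were still called, while Rhd (adjusted p = 0.144) and Tmod1 (0.127) were not and Tfrc, the transferrin receptor gene, was (log2 0.74, edgeR adjusted p = 0.0142).

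These 10 were set apart by their own counts, a 0 in at least 1 library, so no direction is read from them as a set. In the Ezh2-null comparison Slc4a1 had 70 counts in 2 of the 4 Ezh2-null libraries and 0 once JAK2-VF was added. With the floor of 3 counts per group this is at least 38.4-fold lower (edgeR adjusted p = 0.206). The bound rests largely on Ezh2-null batch 2 replicate 2, at 1.97 CPM, beside 0.40 CPM in batch 1 replicate 1. Trim10, a gene of terminal erythroid differentiation, went the other way there, with 2 and 24 counts, each from 1 library. With JAK2-VF, Trim10 was at 0.50 CPM in batch 2 replicate 1, the library with the highest total counts, and at 0 in the rest of the group. Its ratio of levels was 7.29, the exact 95% interval for counting error ran from 1.81 to 63.7, and the edgeR adjusted p was 0.141.

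No member passed a comparison between Ezh2 genotypes in the edgeR fit reported throughout, while Rhag passed against JAK2-VF under the other settings given above. In Ezh2-heterozygous against control libraries 0 of 30 members were called, beside 0% of all genes, and 0 had an unadjusted p under 0.05; without the 2 doubted libraries the call was again 0 members and 0 genes. In Ezh2-null against control libraries 0 were called, beside 0.00669% of all genes (1 gene), and again 0 had an unadjusted p under 0.05. DESeq2 and limma-voom also called 0 in both. In JAK2-VF Ezh2-heterozygous against JAK2-VF libraries 0 were called, beside 0% of all genes, and Slc4a1, Ermap, Cldn13 and Trim10 had an unadjusted p under 0.05; DESeq2 called 1 (Cldn13) and limma-voom 0. In JAK2-VF Ezh2-null against JAK2-VF libraries 0 were called, beside 0.475% of all genes, and Slc4a1, Rhag and Cldn13 had an unadjusted p under 0.05; DESeq2 called Rhag and Cldn13 and limma-voom Rhag. For the difference between the JAK2-VF effects with Ezh2 lost and with Ezh2 intact, 0 members and 0.00669% of all genes were called, with 0 members under an unadjusted p of 0.05 and 0 called by DESeq2 or limma-voom. These comparisons share control or JAK2-VF libraries with those above.

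The rest of the heme and iron genes among the members did not pass in any comparison in the edgeR fit reported throughout. Tfrc passed with limma-voom against control (adjusted p = 0.0317) and with the DESeq2 Wald test in the Ezh2-heterozygous comparison (0.0488). In edgeR without a term for sex, Tfrc passed in the Ezh2-heterozygous and Ezh2-null comparisons (0.0486 and 0.0482). Urod then passed in the Ezh2-null comparison (0.0384), as it did without the 2 doubted libraries (0.0402). Alas1 ranged from 31.4 CPM in Ezh2-heterozygous batch 2 replicate 3 to 232.6 CPM in JAK2-VF batch 2 replicate 4. Urod, Uros and Cpox, which act between ALAD and the last steps, spanned 56.7 to 147, 16.4 to 46.8 and 4.89 to 30.5 CPM. Of the importers, Slc25a37 (mitoferrin 1, which brings iron into the mitochondrion) spanned 55.6 to 122 CPM and Slc25a38 (the mitochondrial glycine carrier) 7.83 to 64.6 CPM. Tfrc spanned 16.1 to 128 CPM, and its log2 changes with JAK2-VF were 0.63 ± 0.25, 0.54 ± 0.19 and 0.63 ± 0.25 (edgeR adjusted p = 0.159, 0.0606 and 0.144). In batch 1 all 8 libraries with JAK2-VF, at 69.4 to 128 CPM, lay above all 6 without it, at 30.6 to 60.1 CPM. In batch 2 the ranges were 31.1 to 48.6 and 16.1 to 48.3 CPM, which overlap. This split pools the Ezh2 genotypes within a batch and was not tested. How many of all genes separate in it was not counted.

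Among the remaining members, Epb42, the gene of protein 4.2, spanned 0.504 to 26.1 CPM with its highest level in Ezh2-heterozygous batch 1 replicate 1. Xk, which encodes the membrane partner of the Kell protein, spanned 9.18 to 42.1 CPM, and Icam4 5.99 to 31.1 CPM. Kel itself was at 0 in 15 of 35 libraries and at most 4.37 CPM. Tspo2, a gene of an erythroid cholesterol-binding membrane protein, was at 0 in 15 libraries, and Sptb, with at most 5.82 CPM, in 10. Hemgn, which encodes the nuclear protein hemogen, spanned 20.3 to 121 CPM and Bpgm, whose enzyme makes 2,3-bisphosphoglycerate, 21.6 to 97.1 CPM. Car2 spanned 3624 to 6495 CPM with log2 changes of 0.03, 0.07 and -0.07 in the 3 comparisons with JAK2-VF.

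Averaged as log2(CPM + 1) over the 30 members, the level per library was 3.71 to 4.06 (median 3.92) in controls, 3.66 to 4.83 (4.01) in Ezh2-heterozygous (3.66 to 4.64, median 3.81, without the 2 doubted libraries), 3.51 to 4.65 (3.93) in Ezh2-null, 3.69 to 4.16 (3.87) in JAK2-VF, 3.70 to 3.91 (3.80) in JAK2-VF Ezh2-heterozygous and 3.74 to 4.05 (3.88) in JAK2-VF Ezh2-null libraries. The 6 ranges overlap. Means in batch 1 and batch 2 were 3.999 and 3.80 in controls, 4.30 and 4.03 with Ezh2 heterozygous and 3.81 and 4.07 with Ezh2 lost. With JAK2-VF they were 3.86 and 3.96, 3.79 and 3.80, and 3.84 and 3.94 for Ezh2 intact, heterozygous and lost. No p-value is given, because the members were listed with results of these data known.

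Other genes of heme and iron handling, from a list of 26, showed a few changes. Against control libraries, 1 rose and 1 fell with JAK2-VF. Tmem14c, which moves protoporphyrinogen into the mitochondrial matrix, rose (log2 0.63 ± 0.18, edgeR adjusted p = 0.0327), and Pgrmc1, a heme-binding membrane protein gene, fell (log2 -0.32 ± 0.10, 0.0494). In the Ezh2-heterozygous comparison 4 rose and 2 fell, among them Tmem14c (0.59 ± 0.13, edgeR adjusted p = 0.00321), the ferritin-autophagy receptor gene Ncoa4 (0.64 ± 0.16, 0.0077) and Pgrmc1 (-0.32 ± 0.07, 0.00339). Without the 2 doubted libraries 3 rose and 2 fell, with these still called (edgeR adjusted p = 0.0205, 0.0204 and 0.0239). In the Ezh2-null comparison 2 rose and 2 fell, with Tmem14c at 0.74 ± 0.18 (edgeR adjusted p = 0.00961), the mitochondrial carrier gene Slc25a39 at 0.55 ± 0.13 (0.00704) and the ferritin light-chain gene Ftl1 at -0.52 ± 0.11 (0.00279). The medians of the 26 were 0.25, 0.03 and 0.15.

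Of 22 other membrane genes, 0, 2 and 1 rose and 1, 2 and 1 fell in the 3 comparisons, with medians of 0.07, -0.12 and -0.10. Epb41, which encodes protein 4.1 of the membrane skeleton, fell in each. Its log2 changes were -0.63 ± 0.15, -0.44 ± 0.11 and -0.64 ± 0.15, at edgeR adjusted p-values of 0.0109, 0.00982 and 0.00671. In the Ezh2-heterozygous comparison without the 2 doubted libraries, 2 of the 22 rose and 1 fell, and Epb41 missed the threshold (log2 -0.39 ± 0.12, edgeR adjusted p = 0.0523). Cd47, the gene of the "do not eat me" surface signal, rose with JAK2-VF in the Ezh2-heterozygous and Ezh2-null comparisons (0.33 ± 0.07 and 0.35 ± 0.09, edgeR adjusted p = 0.00201 and 0.0216, the former 0.00585 without the doubted libraries).

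Of 16 erythroid regulators, 1, 1 and 0 rose and 2, 7 and 2 fell, with medians of -0.31, -0.34 and -0.28. Gata1 rose against control (log2 2.18 ± 0.50, edgeR adjusted p = 0.00854) and in the Ezh2-heterozygous comparison (1.84 ± 0.37, 0.00113), and did not pass in the Ezh2-null comparison (1.09 ± 0.47, 0.19). Lmo2, of the complex that joins GATA1 to TAL1, fell in all 3, by 0.59 ± 0.12, 0.59 ± 0.09 and 0.72 ± 0.12 (edgeR adjusted p = 0.00323, 4.69e-05 and 0.000213). Cbfa2t3, a co-repressor of that complex, also fell in all 3, by 0.45 ± 0.10, 0.26 ± 0.08 and 0.45 ± 0.10 (edgeR adjusted p = 0.00823, 0.0261 and 0.00508). In the Ezh2-heterozygous comparison Ldb1, another part of the complex, fell by 0.53 ± 0.13 (edgeR adjusted p = 0.00586). Without the 2 doubted libraries 1 rose and 5 fell there; Gata1, Lmo2 and Cbfa2t3 were still called (edgeR adjusted p = 0.00951, 6.35e-05 and 0.0117), and Ldb1 missed the threshold (0.0526). Klf1 did not pass, with log2 changes of 0.85 ± 0.71, -0.84 ± 0.53 and -0.14 ± 0.69 (edgeR adjusted p = 0.589, 0.373 and 0.951). Nor did Epor, the erythropoietin receptor gene, with 0.001 ± 0.38, -0.27 ± 0.28 and 0.76 ± 0.37 (edgeR adjusted p = 1, 0.639 and 0.269).

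Other marker lists also differed with JAK2-VF, and their part in the changes of the members was not tested. Of 18 proliferation genes, 16, 17 and 15 rose and 0 fell in the 3 comparisons, with medians of 1.69, 1.63 and 1.70 and a summed level of 945 to 1283 CPM in controls and 2161 to 3586 CPM in JAK2-VF libraries. Of 12 stem-cell genes 0 rose and 5, 7 and 5 fell, with medians of -0.61, -0.47 and -0.44. Of 12 megakaryocyte genes 0 rose and 1, 2 and 1 fell. Of 12 neutrophil and monocyte genes and 8 of mast cells, basophils and eosinophils none was called, and summed levels of the former spread from 421 to 17840 CPM over the libraries. Of 10 lymphoid genes, 7 could be tested and 0 were called.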

How the data were processed

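Raw counts per Entrez gene were deposited by the authors, 1 table per library with gene lengths. STAR and mouse build mm9 are named in the submitters' processing notes; the version of STAR, how reads were counted, on which annotation and whether by strand is not given in the sources used here. The entry for a separately counted part of Ezh2, at most 0.000935% of a library's counts, entered neither library sizes nor tests. The 31 members and all other gene lists were chosen with earlier results of these data known.

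The counts were fitted with edgeR 4.0.16 (R 4.3.3, limma 3.58.1): TMM library sizes (factors 0.937 to 1.062), the default low-count filter (14945 of 19138 genes kept), and 1 robust quasi-likelihood fit over the 35 libraries, in which group, batch and sex were terms and which left 27 residual degrees of freedom. P-values were adjusted over all genes tested by the Benjamini-Hochberg method and called under 0.05. The biological coefficient of variation was 0.554. On simulated counts for JAK2-VF against control, the fit recovered part of the genes changed.

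Levels are CPM on TMM sizes, per kb where genes are compared, and averaged as log2(CPM + 1). Python 3.11.15 with pandas 2.3.3, numpy 2.4.6, scipy 1.17.1 and matplotlib 3.10.9 was used. Promoters are from RefSeq. Alternatives were DESeq2 1.42.0 size factors and Wald test, limma-voom, other filters, covariates and pseudocounts, subsets of libraries and each library left out. Members called in a comparison were given values by library. From the other lists, up to 3 called genes per comparison with the smallest adjusted p were named, with Gata1, Klf1 and Epor whatever their values. Globins, stem-cell markers and Cbfa2t3 in the Ezh2-heterozygous comparison were named beyond this rule, with their values seen. The values of 1 gene of the other membrane list are not reported here.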

Additional observations from a re-analysis of the deposited data

Results flagged for a closer look

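For the 11 members with a call in any comparison and for their average level, 70 sets of values, each from a group of 4 to 8 libraries, were examined for a value far from the rest. Of these values 16 stood out, in 11 libraries. The rule is set to flag about 1 in 20 groups. That share does not hold for a group at 0 in all but 1 library, which is flagged whatever the level. The 16 are therefore not set against chance. Most of the 16 were values of single libraries with counts of a member that was at or near 0 elsewhere in the group. Car1 was at 9.6 CPM in JAK2-VF batch 2 replicate 4 (0 to 0.62 in the others), at 1.53 CPM in JAK2-VF Ezh2-heterozygous batch 1 replicate 2 (0 to 0.02) and at 11.06 CPM in JAK2-VF Ezh2-null batch 2 replicate 2 (0 to 1.23). Those last libraries also held the only Cldn13 counts of their groups, at 1.32 and 1.06 CPM. In the same JAK2-VF Ezh2-heterozygous library Slc4a1 was at 0.04 CPM, with 0 in the others. Ermap was at 0.12 CPM in JAK2-VF Ezh2-heterozygous batch 2 replicate 5 and at 0 in the rest. Rhd was at 4.38 CPM in control batch 1 replicate 1 (0 to 0.28 in the others) and at 3.67 CPM in JAK2-VF batch 2 replicate 3 (0 to 0.32).

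Other libraries stood apart in members with counts everywhere. Rhag was lowest, at 15.13 CPM, in JAK2-VF Ezh2-heterozygous batch 1 replicate 2 (28.52 to 43.66 in the others) and, at 77.88 CPM, in JAK2-VF Ezh2-null batch 2 replicate 2 (98.52 to 112.69), so that these 2 libraries were set apart in Rhag, Car1 and Cldn13 alike. Alad was at 53.12 CPM in Ezh2-null batch 2 replicate 1 (84.91 to 85.61) and at 88.62 CPM in JAK2-VF batch 2 replicate 1 (108.22 to 118.92). Without that Ezh2-null library the Alad call of the Ezh2-null comparison was lost (edgeR adjusted p = 0.28). Blvrb was at 36.79 CPM in JAK2-VF Ezh2-null batch 1 replicate 3 (50.83 to 60.46), Tmod1 at 109.46 CPM in batch 1 replicate 2 of the same group (47.16 to 64.4) and Ank1 at 0.26 CPM in control batch 1 replicate 2 (1.33 to 1.51).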

How the results depend on the processing

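No direction of a called member turned under any alternative. In JAK2-VF against control (2 members called), 0 were called without a term for sex, in batch 1, batch 2 or females alone, and in the compared groups only. In the compared groups only, Cldn13 was removed by the low-count filter and not tested. Leaving out 1 library gave 1 to 2. In the Ezh2-heterozygous comparison (9 called), limma-voom called 5, batch 1 alone 0, batch 2 alone 2, females alone 1, the compared groups only 4 and the fit without the 2 doubted libraries 4; leaving out 1 library gave 5 to 9. In the Ezh2-null comparison (2 called), DESeq2 size factors, no low-count filter, limma-voom and the compared groups only gave 1 each, no term for sex 4, and either batch or females alone 0; leaving out 1 library gave 1 to 2. Fits of batches, females or compared groups hold fewer libraries, and for the other settings the cause was not tested. Against JAK2-VF (0 called), DESeq2's Wald test called 1 member with Ezh2 heterozygous and 2 with Ezh2 lost, where limma-voom, no term for sex, the compared groups only and the fit without the libraries over 50 CPM of Hba-a1 each called 1. With the replicate number within batch as a replicate block, 1, 5 and 1 members were called with JAK2-VF. Against control the 1 was Tmod1, and both Blvrb (edgeR adjusted p = 0.0749) and Cldn13 (0.11) were lost; the others were Alas2, Alad, Slc4a1, Ermap and Blvrb, and then Rhag. Of the pairings checked, 0 of 69 same-numbered pairs correlated above 0.1 (-0.177 to 0.077), so the numbers were not taken to pair libraries. Adjusted p-values that DESeq2 left undefined (24) were kept out. Members with few counts are limited by depth: Cldn13 rests on 17 counts in controls.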
